A study of Drosophila melanogaster with 2 samples.

Results

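Small nucleolar RNA (snoRNA) genes and the genes that carry them were examined for binding of the CG11723-eGFP fusion protein. The snoRNA genes were all those whose symbol begins with snoRNA: in the Ensembl gene models, which gave 257 of the 18277 annotated genes on the major chromosome arms. A host was any gene whose body holds a snoRNA gene on the same strand, and 85 genes were hosts. A host was present for 236 of the 257 snoRNA genes (91.8%), and 230 of these lie in an intron of it; 12 snoRNA genes have 2 hosts. By kind, 29 hosts encode ribosomal proteins, 45 are other coding genes, 7 are Uhg genes and 4 are other non-coding genes. Chromatin immunoprecipitation with sequencing (ChIP-seq) used an anti-GFP antibody on whole Drosophila melanogaster embryos of both sexes, aged 0 to 16 h. The flies came from a transgenic line that stably expresses CG11723 with GFP joined to its C-terminus. All samples carry the transgene, the chromatin was sonicated to fragments of 200 to 800 bp, and many cell types are mixed in a whole embryo. The 2 samples, numbered 1 and 3 as biological replicates, form 1 group. No input or untagged sample was analysed here, so there was no comparison between conditions and no p-value is given.

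snoRNAs guide chemical modification of ribosomal and other RNAs in the nucleolus. C/D box snoRNAs carry the C and D sequence boxes and direct ribose methylation by fibrillarin, whereas H/ACA box snoRNAs end near an ACA trinucleotide and direct pseudouridylation by dyskerin, called Nop60B in the fly. Most fly snoRNAs lie in introns of other genes and are trimmed out of the spliced intron, so the annotated start of such a snoRNA is the end of a mature RNA and not a promoter. Many hosts encode ribosomal proteins, and the Uhg genes are non-coding hosts whose introns hold arrays of snoRNAs.

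By name, 94 of the 257 snoRNA genes were of the C/D class (Me guides and genes with CD in the name), 115 were of the H/ACA class (Psi guides and genes with aca or ACA in the name) and 48 were of neither naming. The sequence boxes bore on these names. The letters TGATGA in the first 20 bases together with CTGA in the last 15 were present in 62 of 94 C/D genes (66.0%) and 0 of 115 H/ACA genes. Both were also present in 15 of the 48 genes of neither naming, U49:66Da among them. The letters ACA in the last 8 bases were present in 108 of 115 H/ACA genes (93.9%), 7 of 94 C/D genes and 11 of the 48 others. Counts by class below follow the names alone, so the others include genes that carry both C/D boxes. The median length was 79 bases for C/D and 140 bases for H/ACA genes. The following 6 snoRNAs are shown because each had a region of the final list near its start and lies in a ribosomal protein gene; they are those with the highest signal of each naming on the arms whose sequence is shown. Capitals mark the boxes, and bases run 5′ to 3′ from the RefSeq Release 6 assembly (dm6).
Me18S-G1358c: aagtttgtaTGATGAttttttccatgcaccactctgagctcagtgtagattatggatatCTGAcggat
Me28S-A774b: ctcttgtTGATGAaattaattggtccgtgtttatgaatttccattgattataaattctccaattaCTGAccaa
Psi28S-1232: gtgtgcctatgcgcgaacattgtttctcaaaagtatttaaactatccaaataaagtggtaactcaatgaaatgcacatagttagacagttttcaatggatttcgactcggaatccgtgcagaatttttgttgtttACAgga
Psi18S-1275: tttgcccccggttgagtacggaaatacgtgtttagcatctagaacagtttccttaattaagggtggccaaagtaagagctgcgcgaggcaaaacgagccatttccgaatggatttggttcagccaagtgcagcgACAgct
Psi28S-2648: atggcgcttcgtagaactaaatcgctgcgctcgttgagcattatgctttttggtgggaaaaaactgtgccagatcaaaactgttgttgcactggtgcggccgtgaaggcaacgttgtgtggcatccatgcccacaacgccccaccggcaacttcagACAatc
U49:66Da: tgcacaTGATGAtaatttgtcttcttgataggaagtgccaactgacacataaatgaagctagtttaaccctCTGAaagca
These lie at Me18S-G1358c at 3L:27267383-27267450 on the plus strand, Me28S-A774b at 3L:13023580-13023652 on the plus strand, Psi28S-1232 at X:6743675-6743815 on the minus strand, Psi18S-1275 at 3R:9778398-9778537 on the plus strand, Psi28S-2648 at 2L:8042189-8042350 on the minus strand and U49:66Da at 3L:8601473-8601552 on the plus strand. All 6 lie in introns of RpL15, RpS12, RpL17, RpS29, RpL36A and RpL14, in the order printed.

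The start sequences of hosts are shown because the summits of most host regions lay near the TSS. The first 5 are those of the highest signal on those arms, and RpS12 and RpS29 were added after their values were seen because they hold a longer motif. Each run covers 100 bases before the annotated transcription start site (TSS) and 20 bases from it onward, on the gene's strand, with the matches described below in capitals.
RpL5: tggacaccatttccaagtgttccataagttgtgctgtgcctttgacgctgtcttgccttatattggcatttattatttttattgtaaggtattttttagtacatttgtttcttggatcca
Stt3A: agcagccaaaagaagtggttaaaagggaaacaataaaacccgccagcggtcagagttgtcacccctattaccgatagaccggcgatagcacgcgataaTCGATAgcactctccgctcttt
RpS3A: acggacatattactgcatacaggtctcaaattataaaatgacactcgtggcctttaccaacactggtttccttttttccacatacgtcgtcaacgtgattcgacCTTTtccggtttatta
RpL15: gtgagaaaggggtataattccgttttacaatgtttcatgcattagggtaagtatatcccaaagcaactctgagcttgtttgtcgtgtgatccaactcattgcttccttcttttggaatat
RpL23A: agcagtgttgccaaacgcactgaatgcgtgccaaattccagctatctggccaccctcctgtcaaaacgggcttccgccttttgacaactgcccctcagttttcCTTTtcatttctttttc
RpS12: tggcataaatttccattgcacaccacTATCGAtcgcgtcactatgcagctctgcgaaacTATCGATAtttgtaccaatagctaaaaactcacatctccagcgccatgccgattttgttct
RpS29: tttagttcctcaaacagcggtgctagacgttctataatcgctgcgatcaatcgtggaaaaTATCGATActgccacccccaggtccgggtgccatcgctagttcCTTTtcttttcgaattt
The runs are those of RpL5 (2L:22536668-22536787, minus strand), Stt3A (X:21053918-21054037, minus strand), RpS3A (4:67188-67307, minus strand), RpL15 (3L:27267155-27267274, plus strand), RpL23A (3L:1668635-1668754, minus strand), RpS12 (3L:13023252-13023371, plus strand) and RpS29 (3R:9777997-9778116, plus strand). Among them, RpS3A, RpL23A and RpS29 hold CTTT with its C within 5 bases of the TSS, as in the pyrimidine tract at the start of many ribosomal protein mRNAs. RpS12 and RpS29 hold TATCGATA, the core of the DNA replication-related element, which contains TCGATA. Stt3A holds TCGATA near its TSS, but its region at X:21054158-21054515 lies wholly upstream of the run shown, and the 101 bp at its summit hold no TCGATA.

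Of the 257 snoRNA genes, 16 (6.23%, exact 95% interval 3.60 to 9.91) had a summit of the final list within 500 bp of their own annotated 5′ end. That list was thresholded by the irreproducible discovery rate (IDR), which keeps regions that rank alike in replicates, and it holds 3869 regions. Among all annotated genes the same count was 12.8%. Intervals given here are Clopper-Pearson intervals that cover counting error only, and snoRNA genes of 1 host share its promoter and are not independent. The pooled list, made from both replicates together before thresholding, had a summit at 42 snoRNA genes (16.3%), against 34.5% of all genes. That list is labelled as peaks and background for IDR, and it and the full list of each replicate hold 30000 regions each. A summit at a low rank in these lists is therefore not a call of binding. The full list of replicate 1 had a summit at 52 snoRNA genes (20.2%), and that of replicate 3 at 25 (9.73%), against 36.6% of all genes in replicate 1 and 36.6% in replicate 3. When each replicate was held to its 3869 regions of highest signal, called top regions here, 21 snoRNA genes (8.17%) were met in replicate 1 and 12 (4.67%) in replicate 3, against 12.4% and 14.6% of all genes in the same lists. The share of snoRNA genes was therefore below that of all genes in every list, although the difference was not tested. Just inside 500 bp were Psi28S-2648 at 485 bp and U49:66Da at 480 bp, and just outside were Me18S-C1096 at 501 bp and Or-ACA6 at 518 bp. A further 26 snoRNA genes had a pooled summit but no final one, at pooled ranks of 4746 to 29040; 20 of them have a host, and in 7 the summit lay at the host TSS.

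By naming, the final list met 9 of 115 H/ACA genes (7.83%), 3 of 94 C/D genes (3.19%) and 4 of 48 others (8.33%). Their intervals overlap, but overlap does not measure a difference, and none was tested. On arm 2R, which holds 93 of the 257 genes, 8 had a region. The 16 genes shared 13 distinct regions, whose signal ran over 93.6 to 456 with a median of 143, against a median of 159 over the regions at the TSS of other genes. Signal is the enrichment measure that the authors' caller gave each region without naming its scale, so it serves only to rank regions within 1 list. All 16 genes had only unique sequence by 36-base words, whereas 209 of all 257 did.

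**Figure D1:**
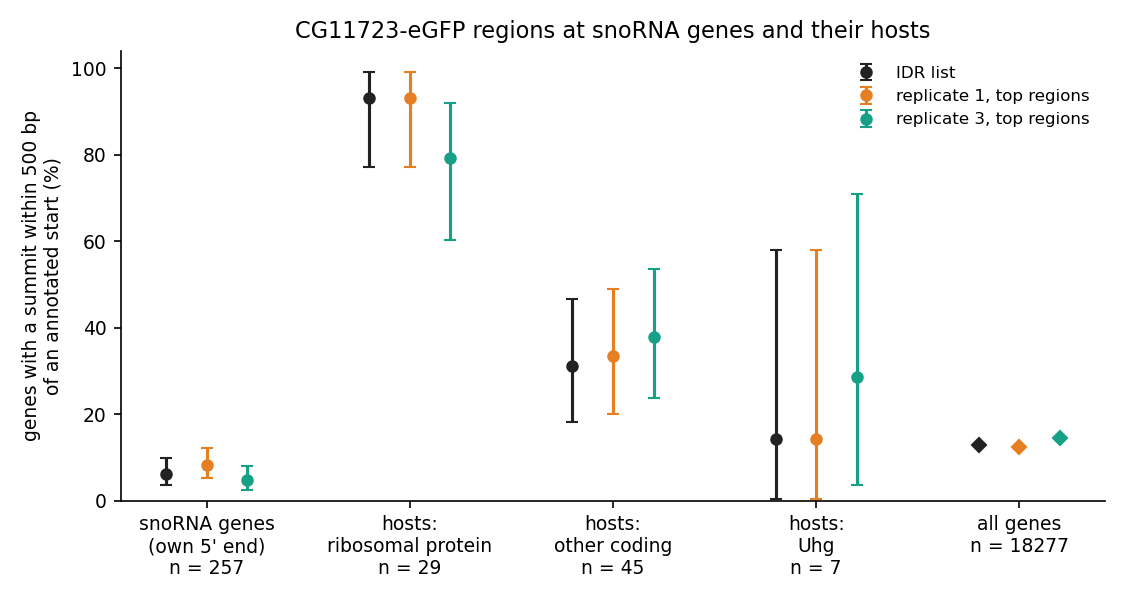
Share of genes with a region summit within 500 bp of an annotated start (y axis, percent), for snoRNA genes at their own 5′ end, for hosts by kind and for all genes, in the final list and in the 3869 top regions of each replicate. Bars are exact 95% intervals that cover counting error only; the ribosomal protein hosts sit at 93.1% in the final list, and the snoRNA genes themselves at 6.23%, below all genes at 12.8%.

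A host held 10 of the 16 genes, and in the final list every one of these regions lay at the host's promoter. In all 10 the summit was within 500 bp of a host TSS and nearer to it than to the snoRNA, with a median distance of 30 bp from the host TSS and 270.5 bp from the snoRNA 5′ end. By the top regions of replicate 3 alone, that is without replicate 1, the median distance from the host TSS was 73 bp. Those regions met 11 hosted snoRNA genes, of which 9 had the summit at the host TSS. The top regions of replicate 1 met 14, all 14 with the summit at the host TSS. The 10 snoRNAs lie in 9 hosts, of which 8 encode ribosomal proteins and the ninth is Uhg4. The region itself reached into the snoRNA body in 2 of the 10, Me18S-G1358c in RpL15 and Psi28S-2949 in Uhg4. The map of the hosted snoRNAs shows the same layout in each case, with the summit at the host TSS and the snoRNA downstream.

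**Figure D2:**
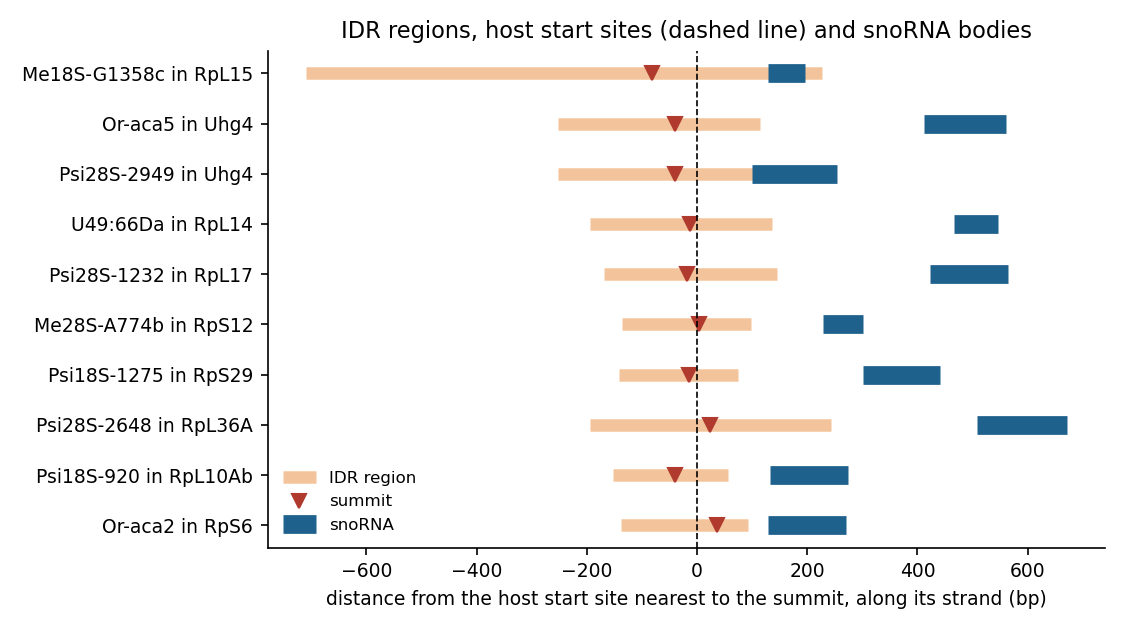
Regions of the final list (light bars), their summits (triangles) and snoRNA bodies (dark bars) for the 10 hosted snoRNA genes with a region, in bp along the host strand from the host start site nearest to the summit. Every summit falls within 81 bp of the dashed host start, and only Me18S-G1358c and Psi28S-2949 are reached by the region.

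The hosted snoRNAs with a region are given in order of signal. Me18S-G1358c lies 209 bp downstream of the summit at RpL15, a large-subunit ribosomal protein gene, where the region 3L:27266545-27267482 had a signal of 456 (rank 217), with 244 (rank 243) in replicate 1 and 227 (rank 190) in replicate 3. In Uhg4, Psi28S-2949 lies 138 bp and Or-aca5 451 bp downstream of 1 shared summit of signal 449.8 (rank 223), which had 266 (rank 203) in replicate 1 and 189.6 (rank 300) in replicate 3. U49:66Da lies 480 bp downstream of the summit at RpL14, of signal 399.9 (rank 298), which ranked 213 in replicate 1 and 602 in replicate 3. Both replicates placed these 3 hosts high.

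Psi28S-1232 in RpL17 lies 442 bp from a summit of signal 299.7 (rank 537), which ranked 387 in replicate 1 and 871 in replicate 3. Me28S-A774b in RpS12 lies 225 bp from a summit of signal 199 (rank 1159), which ranked 640 in replicate 1 and 1928 in replicate 3. Psi18S-1275 in RpS29 lies 316 bp from a summit of signal 187 (rank 1284), with ranks of 973 in replicate 1 and 1546 in replicate 3. All of these hosts ranked higher in replicate 1.

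The remaining hosted members had weaker regions. Psi28S-2648 in RpL36A lies 485 bp from a summit of signal 136 (rank 2097), which ranked 1203 in replicate 1 and was without a summit at the host TSS in replicate 3. Psi18S-920 in RpL10Ab lies 172 bp from a summit of signal 133 (rank 2185), with ranks of 1617 in replicate 1 and 1790 in replicate 3. Or-aca2 in RpS6, whose region also lies at the overlapping pseudogene CR33222, is 92 bp from a summit of signal 97.8 (rank 3369), with ranks of 2087 in replicate 1 and 3408 in replicate 3. RpL36A is thus the one host among these with support from a single replicate.

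The hosted snoRNAs met within 500 bp were close to the TSS of a host with a region, which the window largely sets. A summit within 500 bp of a host TSS cannot lie within 500 bp of a snoRNA more than 1000 bp from that TSS. The counts by distance below describe the layout and are not a separate result. Of the snoRNAs up to 500 bp from the TSS of a host with a region, 9 of 21 (42.9%) were met, of those at 501 to 1000 bp 1 of 33, of those at 1001 to 2000 bp 0 of 35, and of those beyond 2000 bp 0 of 20. In the final list, no snoRNA was met whose host had no region, at any of these distances. The top regions of a single replicate did meet such snoRNAs. They lay 169 bp from the host TSS in replicate 1, and 3545 and 3659 bp from it in replicate 3. The median distance from the nearest upstream host TSS was 883.5 bp in ribosomal protein hosts, 1050 bp in Uhg hosts and 2742 bp in other coding hosts. Inside host bodies and away from host TSSs, the final list held 24 summits, of which 0 lay within 500 bp of a snoRNA 5′ end. The pooled list held 174 such summits, of which 11 did. Bodies of hosts with a region ran up to 136204 bp, and the share of host bodies within 500 bp of a snoRNA was not computed. These counts therefore do not show whether summits avoid snoRNAs.

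**Figure D3:**
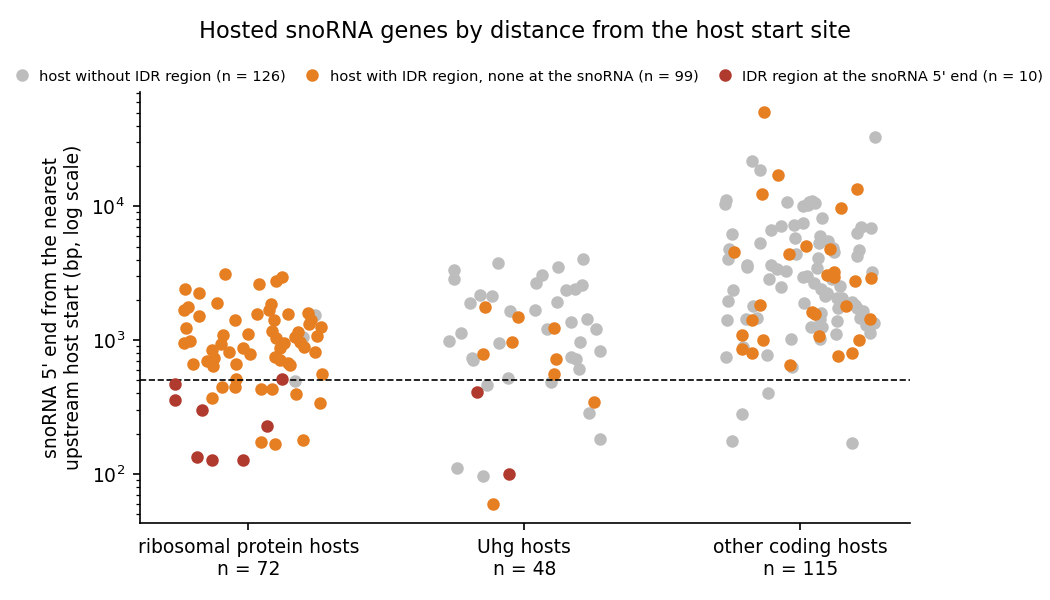
Each point is a hosted snoRNA gene, placed by the distance of its 5′ end from the nearest upstream start of its host (y axis, bp, log scale) and by the kind of host; the dashed line marks 500 bp. The 10 genes with a region at their own 5′ end sit near or below the line, and 99 more lie in a host with a region but have no summit within 500 bp of their own 5′ end; 4 of these, in Uhg7, owe this to the ribosomal protein gene RpL23A, which holds Uhg7.

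Counted by host, regions at the TSS were present in most coding hosts. A summit of the final list lay within 500 bp of a TSS of 43 of 85 hosts (50.6%, 39.5 to 61.6), in 42 distinct regions. For the coding hosts it was 41 of 74 (55.4%), against 15% of all coding genes. The pooled list gave 54 of 74 coding hosts (73.0%), against 37.1% of all coding genes. The top regions of replicate 1 gave 42 of 74 (56.8%), against 14.3%, and those of replicate 3 gave 40 of 74 (54.1%), against 17.5%. A host with a region was present for 109 of the 257 snoRNA genes (42.4%).

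Most of the hosts with a region encode ribosomal proteins. Of 29 such hosts, 27 had a region (93.1%, 77.2 to 99.2), with 27 of 29 in the top regions of replicate 1 and 23 of 29 in those of replicate 3. Ribosomal protein genes without a snoRNA had a region in 41 of 59 (69.5%, 56.1 to 80.8). This interval shares only 77.2 to 80.8 with that of the hosts. Overlap of intervals does not measure the difference, which was not tested. RpS9, a host without a region that was named after its values were seen, ranked 10384 in the pooled list and 10405 in replicate 1. Of the 72 snoRNA genes assigned to ribosomal protein hosts, 69 had a host with a region and 8 had a region at their own 5′ end.

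Of the other coding hosts, 14 of 45 had a region (31.1%, 18.2 to 46.6), against 15% of all coding genes. These shares were not matched for the number of annotated TSSs per gene, and a summit at any TSS counted. Of the 7 Uhg genes 1 had a region, Uhg4 (14.3%), a share near the 12.8% of all genes. None of the 115 snoRNA genes assigned to other coding hosts had a region at its own 5′ end (0 of 115, upper limit 3.16%). The limit treats the genes as independent, which those sharing a host are not. For 29 of them the host had a region. All snoRNAs in other coding hosts with a region lay more than 500 bp from the nearest upstream host TSS. Their position thus limits how often a region at the host TSS could be met at them. The Uhg genes held 48 snoRNA genes, of which 2 had a region at their own 5′ end.

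Summits at the ribosomal protein hosts lay close to the TSS, with a median of −21 bp and a range of −247 to 36 bp, where negative values are upstream. At the other coding hosts the median was −99 bp and the range −388 to 472 bp. Summits were within 100 bp of the TSS in 25 of 27 ribosomal protein hosts and 5 of 14 other coding hosts, and 33 of all 43 hosts had it upstream. Signal had a median of 241 (97.8 to 658) at the ribosomal protein hosts and 197 (93.6 to 604) at the other coding hosts. It was 269 (99.2 to 671) at the 41 ribosomal protein genes with a region that hold no snoRNA. These ranges overlap almost fully.

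The hosts of highest signal were RpL5, a large-subunit protein gene, and Stt3A, which encodes a catalytic subunit of the oligosaccharyltransferase. RpL5 had a signal of 658 (rank 74), with 349.7 (rank 84) in replicate 1 and 307 (rank 78) in replicate 3, and its summit lay 87 bp upstream of the TSS. Stt3A had 604 (rank 102), with 374 (rank 67) in replicate 1 and 225 (rank 191) in replicate 3, and its summit lay 388 bp upstream. RpS3A, on chromosome 4, had 579.8 (rank 122), with 395 (rank 53) in replicate 1 and 210.2 (rank 234) in replicate 3. All 3 ranked near the top in both replicates.

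Among the 10 highest were also RpL15, Uhg4 and RpL14, described above, and RpL23A, RpL13A, RpS4 and RpS16. RpL23A had a signal of 421, with ranks of 256 in replicate 1 and 323 in replicate 3. RpL13A had 416, with ranks of 169 in replicate 1 and 609 in replicate 3. RpS4 had 399.6, with ranks of 85 in replicate 1 and 1382 in replicate 3, the widest gap of the 10. RpS16 had 355, with ranks of 431 in replicate 1 and 590 in replicate 3.

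Among the hosts with a region, the median ranks of the 2 kinds of coding host stood in opposite order in the replicates. Ribosomal protein hosts with a region ranked higher in replicate 1 than in replicate 3 in 22 of 27, with a median rank of 586 in replicate 1 and 1202 in replicate 3, the last over the 26 with a summit there. Other coding hosts did so in 4 of 14, with a median rank of 1916 over 12 hosts in replicate 1 and 876 over 13 hosts in replicate 3. Over all hosts, both replicates met ribosomal protein hosts at a higher share: 23 of 29 (79.3%) against 17 of 45 other coding hosts (37.8%) in the top regions of replicate 3, and 27 of 29 against 15 of 45 in those of replicate 1. Among all coding genes, 14.3% were met by the top regions of replicate 1 and 17.5% by those of replicate 3. How many of all final-list regions ranked higher in replicate 1 was not counted, so neither order can be called particular to hosts. With 1 sample each, the difference between replicates was not tested. Both replicates had the host among their top regions for 35 of the 43 hosts, for 23 of 27 ribosomal protein hosts and for 10 of 14 other coding hosts.

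**Figure D4:**
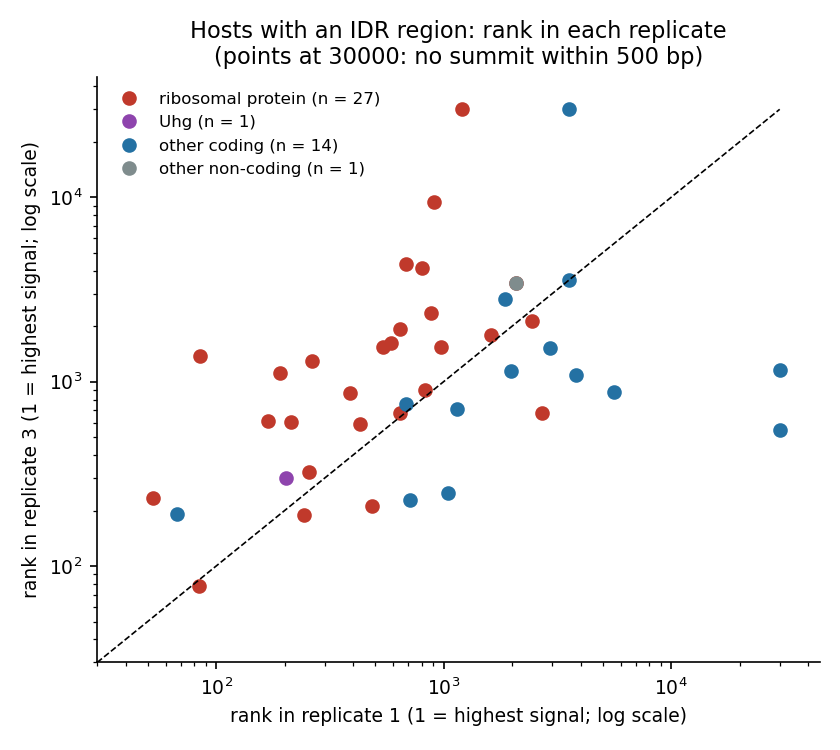
Rank of each of the 43 hosts with a region in replicate 1 (x axis) and replicate 3 (y axis), where 1 is the highest signal and both axes are logarithmic; points at 30000 had no summit within 500 bp. Ribosomal protein hosts lie mostly above the dashed diagonal, with 22 of 27 ranked higher in replicate 1, and other coding hosts mostly below it.

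Hosts of several snoRNAs differed by kind. There were 21 hosts with 4 or more snoRNA genes, holding 153 of them, of which only 3 snoRNAs had a region at their own 5′ end. All 7 that encode ribosomal proteins had a region, as did 3 of the other 14. The ribosomal protein hosts were RpS5a with 14 snoRNAs, RpS7 with 7, RpS16 and RpL28 with 5 each, and RpL3, RpL17 and RpL23A with 4 each. RpS5a had a signal of 260.1 (rank 693), with ranks of 641 in replicate 1 and 678 in replicate 3. RpS7 had 166 (rank 1560), with ranks of 684 and 4351 in replicates 1 and 3, and RpL3 had 157 (rank 1707), with ranks of 908 and 9392. The last pair was thus far lower in replicate 3.

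The 3 other hosts with a region were Uhg4 with 7 snoRNAs, lola with 4 and kra with 8. The summit at lola, which encodes a BTB zinc-finger transcription factor, had a signal of 353 (rank 387), with ranks of 714 in replicate 1 and 227 in replicate 3. The summit at kra, a translation regulator gene, had a signal of 157 (rank 1696), with ranks of 2929 in replicate 1 and 1529 in replicate 3. Both hosts thus ranked higher in replicate 3.

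The 3 hosts with the most snoRNAs, and 8 others with 4 or more, had no region in the final list. Arpc2, an Arp2/3 complex gene with 17 snoRNAs, was met at rank 12318 in replicate 1 and 3693 in replicate 3, and had no pooled summit at its TSS. The non-coding Uhg1, with 16 snoRNAs, was met in none of the lists. The chromatin-remodelling ATPase gene dom, with 15, ranked 11881 in replicate 1 and 4553 in replicate 3, and Uhg5, with 11, ranked 9703 in replicate 1 only among the replicates. Nop60B, with 7, ranked 29739 in replicate 1 and 3746 in replicate 3, and Hrb98DE, an hnRNP gene with 7, ranked 10028 in replicate 1. The splicing factor gene Sf3b3 with 9 snoRNAs, CG10576 with 5, lncRNA:CR45184 with 5 that lie also in Sf3b3, and Uhg7 with 4 were met in none of the lists. Uhg2, with 4, ranked 5897 in replicate 1 and 11691 in replicate 3. Hosts of a single snoRNA had a region in 20 of 46.

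No host held the other 6 of the 16 snoRNA genes with a region, out of 21 hostless snoRNA genes (28.6%, 11.3 to 52.2), against 12.8% of all genes. These 6 genes, all on arm 2R, share 4 regions. One summit lay 28 bp upstream of snoRNA:2R:9445410, 233 bp upstream of snoRNA:2R:9445205 and 397 bp upstream of Psi28S-1153, with a signal of 99.95 (rank 3261). It ranked 1794 in replicate 1 and was not met in replicate 3, and it lay 462 bp upstream of the TSS of CG13334 on the opposite strand. The summit at Psi18S-176 lay 1 bp upstream of it, with a signal of 109 (rank 2856), a rank of 1857 in replicate 1 and none in replicate 3. Neither region had a summit of replicate 3 within 500 bp.

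The summit at snoRNA:185 lay 36 bp upstream, with a signal of 93.6 (rank 3588), and ranked 1814 in replicate 1 and 4375 in replicate 3. It also lay 343 bp from the start of tRNA:Glu-TTC-1-5. The summit at Or-CD13 lay 479 bp downstream, with a signal of 143 (rank 1953), and ranked 3252 in replicate 1 and 1713 in replicate 3. Hostless snoRNA genes were met in 7 of 21 by the top regions of replicate 1 and in 1 of 21 by those of replicate 3, against 12.4% of all genes in replicate 1 and 14.6% in replicate 3. Of all 16 snoRNA genes with a region, 6 had no summit of replicate 3 within 500 bp of their 5′ end, and 0 lacked one of replicate 1. All 4 hostless regions were 440 bp wide with the summit at the middle, the most common width of the final list, held by 1739 of 3869 regions (44.9%). Only 7 of the 42 regions at hosts had that width.

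The short sequences around the start sites and summits of hosts were compared with those of other genes. CTTT with its C within 5 bases of the TSS, on the gene's strand, was present at 16 of 27 ribosomal protein hosts with a region (59.3%) and at 3 of 14 other coding hosts. It was present at 16 of 41 ribosomal protein genes with a region but no snoRNA (39.0%). The share was 7.07% of all coding genes with a region and 8.06% of all coding genes at any TSS. In the 101 bp centred on the summit, TATCGATA on either strand was present at 3 of 27 ribosomal protein hosts, namely RpS12, RpS29 and RpL10Ab. TATCGATA was present at 10 of 41 ribosomal protein genes with a region but no snoRNA. The share was 3.92% of all coding genes with a region and 1.76% of all regions of the final list.

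The shorter TCGATA, which lies within TATCGATA, was present on either strand at 4 of 27 ribosomal protein hosts. It was present at 17 of 41 ribosomal protein genes with a region but no snoRNA, 10.4% of all coding genes with a region and 6.41% of all regions. ACAGTGG was present at 0 of 27 ribosomal protein hosts and at 2 of 14 other coding hosts, SC35 and pAbp, against 2.53% of all coding genes with a region and 3.23% of all regions. GGTCACACT was present at 1 of 27 ribosomal protein hosts, RpL27A, and at 5 of 41 ribosomal protein genes with a region but no snoRNA. The share was 1.10% of all coding genes with a region and 0.439% of all regions. These are matches of letters and were not tested as sites.

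The genes for the proteins that act with snoRNAs were listed as a pathway: 4 proteins of the C/D particle, 4 of the H/ACA particle and 8 of assembly and trafficking. A region lay at the TSS of 5 of the 16 (31.3%, 11.0 to 58.7), while 4 of the 16 were in the top regions of replicate 1 and 8 in those of replicate 3. Among all coding genes the shares were 15% in the final list, 14.3% in the top regions of replicate 1 and 17.5% in those of replicate 3, and the interval of the 5 genes includes 15%. The 5 were 1 of 4 C/D proteins, 0 of 4 H/ACA proteins and 4 of 8 assembly proteins. Fib, the methyltransferase fibrillarin and itself a host of 1 snoRNA, had a signal of 105 (rank 3012), with ranks of 3573 in replicate 1 and 3539 in replicate 3. Pih1D1, of the R2TP assembly complex, had 307 (rank 518), with a rank of 277 in replicate 3 and no summit in replicate 1.

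The ATPases pont and rept, of the same complex, had 238 (rank 819) and 97.4 (rank 3399). The first ranked 1432 in replicate 1 and 599 in replicate 3, the second 6568 and 2367. Nopp140, a nucleolar phosphoprotein, had 124 (rank 2397), with ranks of 4463 and 1917. Each of the 4 assembly genes with a region ranked higher in replicate 3 or was met there alone. No region of the final list lay at Nop56, nop5, hoip, Nop60B, Gar1, NHP2, Nop10, CG10341, CG10055, Nufip or spag.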

How the data were processed

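ChIP-seq regions of 2 biological replicates (1 group) were analysed from narrowPeak lists deposited on dm6. Per the submitters' file notes, regions were listed for each replicate and for both pooled before thresholding, and the final list was thresholded by IDR from these. The pooled list is labelled as peaks and background for IDR. Which aligner, caller and threshold were used is not given in the sources used here. Each region's deposited signal is the authors' enrichment measure, with no scale given, and it was used only to rank regions within a list. The other deposited column used is the summit offset. Lists on dm3 were not used. Read numbers are not in the lists, so depth is unknown and depth-based precision cannot be given.

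Gene models were Ensembl release 115 (BDGP 6.54), and bases came from the RefSeq Release 6 genome. Coordinates count from 1. A region counted for a gene when its summit lay within 500 bp of any annotated TSS. Genes with more annotated TSSs thus had more chances to be met, and no share was matched for their number. Where a snoRNA had 2 hosts (12 genes), a coding or Uhg host was taken first and then the shorter body. Shares carry exact 95% binomial intervals from scipy 1.17.1, with numpy 2.4.6, Python 3.11.15 and matplotlib 3.10.9, and no test was made. The counting code was checked on simulated data.

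Named genes were every snoRNA gene with a final-list summit and its host, every host of 4 or more snoRNA genes, the 10 hosts of highest signal and the snoRNP protein list, and others where stated. Members and lists were chosen with earlier results of these data known. One host is not reported here by name.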

Additional observations from a re-analysis of the deposited data

How the results depend on the processing

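Of 78 alternatives, 52 gave a count within 1.5 times the one reported (or a position within its spread) and 26 did not; some were chosen after seeing the data (the requirement of top regions in both replicates, and the alternatives for ribosomal protein hosts, other coding hosts, hosts of several snoRNAs and hostless genes). A 200 bp window gave 6 snoRNA genes, 3 at the host TSS, 1 in hosts of several snoRNAs, 3 hostless, 0 C/D and 4 H/ACA. A 1000 bp window gave 45, 37 at the host TSS, 11 in hosts of several, 19 C/D and 17 H/ACA. The upper 1934 regions gave 7 snoRNA genes, 0 hostless, 4 H/ACA and 2 snoRNP protein genes. Top regions in both replicates gave 10 snoRNA genes and 1 hostless. Region midpoints lay at a median 352.5 bp from the snoRNA, and the median rank was 1203 in replicate 1. Leaving out each replicate gave 12 to 21 snoRNA genes, 43 to 44 hosts, 23 to 27 ribosomal protein hosts, 15 to 17 other coding hosts, 9 to 14 at the host TSS, 4 to 5 in hosts of several, 1 to 7 hostless (1 without replicate 1), 4 to 5 C/D, 7 to 11 H/ACA and 4 to 8 snoRNP genes (8 without replicate 1), with summits at medians of 358 to 383 bp from the snoRNA and 27 to 73 bp from the host TSS. The cause was not tested where values moved, beyond the wider or narrower window. The counts of hosts stayed within 34 to 46 in every alternative run. No paired analysis was possible because there is only 1 group.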

Other observations

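A few genes ranked among the top regions of both replicates without a region in the final list. Over all genes, 1484 had a top region in both replicates, and 67 of these (4.51%) had no final region, 31 of them with no pooled summit within 500 bp either. Among snoRNA genes this was 1 of 10, Or-CD11a in RpL28, and among hosts 1 of 36, nop5. Among the snoRNP protein genes it was 2 of 4, nop5 and NHP2. The C/D particle gene nop5 ranked 1697 in replicate 1 and 2117 in replicate 3, with summits 170 and 184 bp upstream of the TSS. The pooled list had no summit at its TSS. The nearest pooled summit lay 1489 bp upstream at rank 18322, at the TSS of another host. The H/ACA particle gene NHP2 ranked 827 in replicate 1 and 1605 in replicate 3, and its pooled summit, at rank 8171, lay 425 bp upstream. RpL28 kept a final region, at pooled rank 2454 and 247 bp upstream, while its replicate summits lay 40 and 73 bp upstream at ranks 484 and 211. The pooled list placed NHP2 and RpL28 below both replicates and had no summit at the TSS of nop5. The cause was not tested.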
